A study of Mus musculus with 4 samples.

Results

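The interleukins and the tumour necrosis factor (TNF) superfamily, with their receptors, were followed in the livers of mice fed an atherogenic diet. Members were all genes whose annotated symbol is Tnf or begins with Tnfsf, Tnfrsf or Il and a digit, counting only probes that name 1 gene. The arrays named 95 such genes, and 93 had a value on all 4 arrays, of 13705 genes measured in all. By role they were 40 ligands, 49 receptors (among them decoy receptors, which bind a ligand without passing the signal on) and 3 inhibitors. The last member, Il4i1, is an amino acid oxidase induced by interleukin-4 and falls under the rule by its name alone. Liver RNA of male C57Bl/6J mice was amplified and measured on 4 two-colour arrays, each setting a diet sample in Cy5 against chow in Cy3. Mice ate the atherogenic diet for 6 or 24 weeks (called the plain diet here), or the atherogenic diet together with a high-fat diet for 6 or 24 weeks. Chow was fed for the matching time, except that the plain 6-week array names no duration of chow. Each condition had 1 array and no dye swap. The sources used here do not say whether the RNA of a condition was that of 1 animal or several, nor whether one chow RNA served several arrays. Values are log2 ratios of diet over chow, where 1 unit is a doubling. The base of the deposited logarithms is not stated and was read as 10, so folds rest on that reading. Their direction is not stated either and was inferred from the dyes, so every rise and fall given here rests on it. Ratios carry no level, so liver identity, and which of these genes the liver expressed strongly, could not be read from them.

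Interleukin-1 and TNF are the early alarm signals of inflammation, made largely by macrophages, which in liver include the resident Kupffer cells. Both act through receptors that lead to the transcription factor NF-kB, and the interleukin-1 system carries its own brakes: a receptor antagonist (Il1rn), a decoy receptor (Il1r2) and, for the related interleukin-18, a soluble binding protein (Il18bp). Most other interleukins signal through paired receptor chains and the JAK-STAT pathway, and many TNF superfamily ligands steer lymphocyte survival or tissue repair.

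Promoter sequence is shown for 4 members: Il1rn and Tnfrsf12a, whose rise held under every setting run, and Il1b and Tnf, the agonists whose ratios changed sign between arrays. Each run is the 150 bases before a RefSeq start site (GRCm38.p6), 5′ to 3′ on the gene's strand, and capitals mark matches to any of 7 motifs searched on both strands.
Il1rn, chr2:24336710-24336859, plus strand, 1 of 3 annotated starts: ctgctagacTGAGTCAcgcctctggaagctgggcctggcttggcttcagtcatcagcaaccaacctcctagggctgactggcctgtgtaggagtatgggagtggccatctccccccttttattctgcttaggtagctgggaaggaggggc
Tnfrsf12a, chr17:23677450-23677599, minus strand: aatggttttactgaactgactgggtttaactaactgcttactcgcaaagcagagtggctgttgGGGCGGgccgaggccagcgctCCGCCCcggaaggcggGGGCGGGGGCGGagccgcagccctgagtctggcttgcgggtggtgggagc
Il1b, chr2:129371140-129371289, minus strand: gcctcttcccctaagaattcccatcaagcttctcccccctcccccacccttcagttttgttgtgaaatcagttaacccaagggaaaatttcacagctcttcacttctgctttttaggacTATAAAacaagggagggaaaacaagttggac
Tnf, chr17:35202008-35202157, minus strand: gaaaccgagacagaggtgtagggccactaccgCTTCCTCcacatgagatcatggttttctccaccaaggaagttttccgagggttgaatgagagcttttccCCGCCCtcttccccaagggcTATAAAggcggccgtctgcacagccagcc

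The Il1rn run shown holds 1 match to AP-1 (TGANTCA), which starts 141 bases before the start site. The runs of the same length before the other annotated starts of Il1rn hold no match to any motif searched. The Tnfrsf12a run holds 4 matches to the GC box (GGGCGG) and none to the TATA box (TATAAA), whereas Il1b has a TATA box 31 and Tnf 29 bases before the start. Tnf also has 1 GC box and 1 match to PU.1 (GAGGAAG). Promoter windows of 300 bases were counted for 74 of the 95 members, in 91 windows. Windows of members on 1 chromosome were left out of this count, whereas no chromosome was removed from the 32851 windows of all genes. The 2 sets of windows below are thus not fully alike. AP-1 matches lay in 19.8% of member windows and 7.81% of all 32851 windows. The NF-kB consensus lay in 8.79% and 4.51%, C/EBP (TTGCNNAA) in 15.4% and 10.8%, and STAT (TTCNNNGAA) in 15.4% and 8.30%. PU.1 lay in 9.89% and 13.6%, the GC box in 35.2% and 35.7%, and the TATA box in 17.6% and 13.6%. These are matches of letters in a window and not binding sites. Among the 9 members that rose with diet, 1 had the NF-kB consensus and 2 had AP-1 in a window. Of 27025 genes with a window, 5.14% and 8.97% had these. C/EBP lay in 2 of the 9 (12.2% of such genes), STAT in 1 (9.55%) and PU.1 in 1 (15.4%). The GC box lay in 5 (38.2%) and the TATA box in 1 (15.7%).

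The first comparison asked which members stood apart from chow when all conditions were averaged. The mean of the 4 arrays was tested against 0 with limma, and p was adjusted over all 13705 genes with a threshold of 0.05. Of the 93 members 12 passed, 9 higher and 3 lower. Of all genes 12.0% passed, 6.25% higher and 5.72% lower, so the share of members that changed lay near that of any gene. The 9 that rose were Il1rn, Tnfrsf12a, Tnfsf13, Il18bp, Il1r2, Il1r1, Il4i1, Il13ra1 and Il9r, and the 3 that fell were Tnfrsf19, Tnfsf12 and Il17a. By role, 1 ligand rose and 2 fell of 40, 5 receptors or decoys rose and 1 fell of 49, and 2 of 3 inhibitors rose. The other 81 members had means between -0.36 and 0.55, and 59 of the 93 lay within 0.2 of 0. On all 4 arrays 21 members stood above chow and 16 below, where 20.7% and 20.0% of all genes did. Il1rn and Tnfrsf12a kept their call under every setting run. The other calls ended under at least 1, most often without the plain 24-week array, where 3 members and 2.09% of all genes passed. Without the plain 6-week array 8 members passed, 7 of them among the 12, and 8.60% of all genes. Without the high-fat 6-week array 5 members and 5.72% of all genes passed, and without the high-fat 24-week array 6 members and 5.54%. The counts of members thus fell where those of all genes fell. Diet RNA was always labelled with Cy5, and dye preference of a probe and response to diet cannot be told apart.

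**Figure D1:**
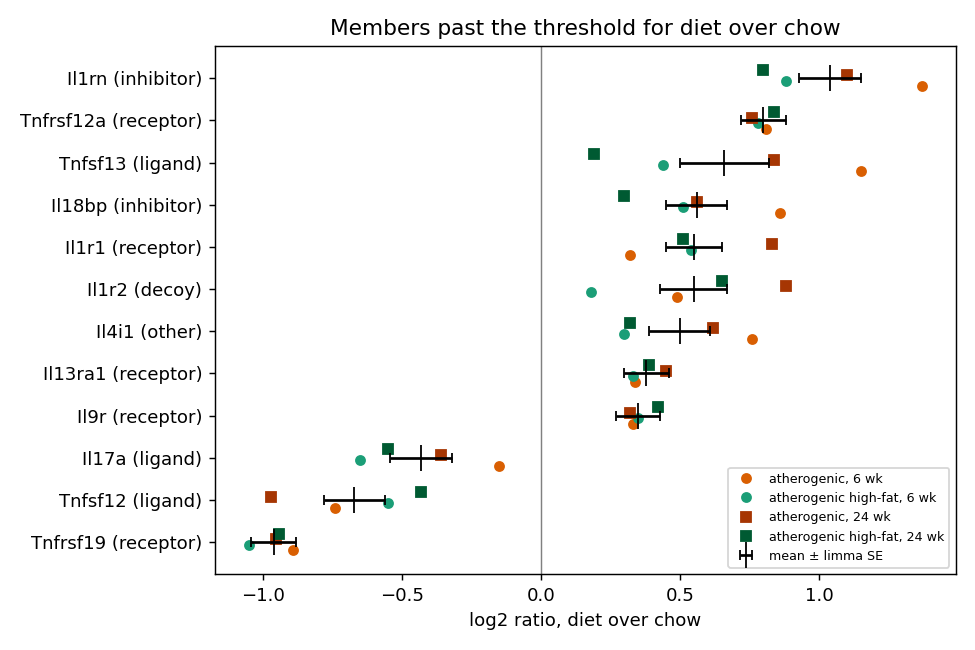
Log2 ratio of diet over chow (x axis) for the 12 members past the threshold, with each array as a point and the mean with its limma standard error in black. Tnfrsf12a spans 0.76 to 0.84 over the 4 arrays, whereas Tnfsf13 spans 0.19 to 1.15; Tnfrsf19 rests on 1 of its 4 probes.

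The interleukin-1 system showed its clearest rise in its antagonist. Il1rn, which occupies the interleukin-1 receptor without activating it, had ratios of 1.37 and 1.10 with the plain diet at 6 and 24 weeks and of 0.88 and 0.80 with high fat. Every array was thus well above chow, and both plain arrays stood above both high-fat arrays. The mean was 1.04 ± 0.11 (limma SE, 4 arrays), a 2.05-fold rise (adjusted p = 0.00506). The signalling receptor Il1r1 had 0.32 and 0.83 with the plain diet and 0.54 and 0.51 with high fat, a mean of 0.55 ± 0.10 (adjusted p = 0.0233). The decoy receptor Il1r2 had 0.49 and 0.88 with the plain diet and 0.18 and 0.65 with high fat, also a mean of 0.55, with an SE of 0.12 (adjusted p = 0.0384). Both receptors were above chow on every array, and both had their highest value on the plain 24-week array. The call of Il1r1 ended without the high-fat 6-week (adjusted p = 0.0684), the plain 24-week (0.0923) or the high-fat 24-week array (0.0662). That of Il1r2 ended without the plain 6-week (0.0743), the plain 24-week (0.141) or the high-fat 24-week array (0.105). The shared accessory chain Il1rap stood at -0.06 ± 0.12 and did not pass.

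Neither agonist passed. Il1b had 0.74 and 0.49 on the 6-week arrays (plain, then high fat) and -0.42 and -0.30 on the 24-week arrays. Its arrays split by duration without overlap, above chow at 6 weeks and below it at 24 weeks, and the mean over all 4 was 0.13 ± 0.21 (adjusted p = 0.709). Il1a, the mean of 2 probes, lay between 0.14 and 0.48, above chow on every array, with a mean of 0.27 ± 0.09 (adjusted p = 0.104; 0.0234 in the additive model, where 38.1% of all genes passed). Il1rn exceeded Il1r1 on all 4 arrays, and both passed. Among the interleukin-36 cytokines, epithelial relatives of interleukin-1, no member passed: Il1f6, Il1f8 and Il1f9 had means of -0.16, -0.30 and -0.11, their antagonist Il1f5 0.08 and their receptor Il1rl2 -0.04. Il33, an alarm cytokine held in the nucleus, was below chow on every array, from -0.60 to -0.16, and did not pass (-0.30 ± 0.10, adjusted p = 0.106).

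Interleukin-18 and its binding protein had nearly the same mean. Il18 had 0.98 and 0.73 with the plain diet and 0.34 and 0.15 with high fat, all above chow, with a mean of 0.55 ± 0.15 that did not pass (adjusted p = 0.0584; 0.0280 with arrays scaled to a common spread). Il18bp, which neutralises secreted interleukin-18, had 0.86 and 0.56 with the plain diet and 0.51 and 0.30 with high fat, and rose by 0.56 ± 0.11 (adjusted p = 0.0254). Its 2 probes had means of 0.42 and 0.69, and its call ended without the high-fat 6-week (0.0682) or the plain 24-week array (0.113). The receptor chains Il18r1 and Il18rap had means of 0.19 and 0, and neither passed. Il18r1 was highest on the high-fat 6-week array, at 0.66.

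**Figure D2:**
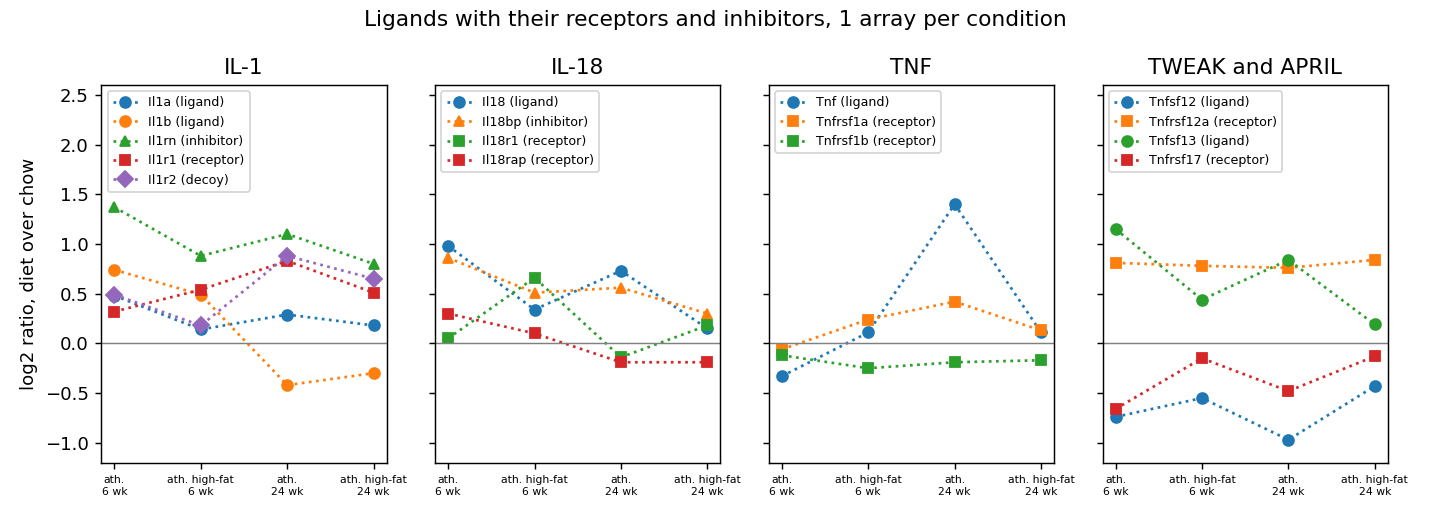
Log2 ratio of diet over chow (y axis) on each of the 4 arrays (x axis, ath. for atherogenic) for 4 ligand and receptor systems; dotted lines join the values of a gene and circles, squares, diamonds and triangles mark ligands, receptors, decoys and inhibitors. Il1rn is between 0.80 and 1.37 while Il1b crosses 0 between 6 and 24 weeks, Tnf is high on the plain 24-week array only among its 4 arrays, and Tnfsf12 and Tnfrsf12a lie on opposite sides of 0.

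Within the TNF superfamily the founding cytokine changed on 1 array. Tnf had -0.33 and 1.40 with the plain diet at 6 and 24 weeks and 0.11 and 0.11 with high fat. Its 2 probes read 1.18 and 1.63 on the plain 24-week array and between -0.46 and 0.17 on the other arrays, so both probes had that one high value. With 1 array a condition it has no replicate, and the mean of 0.33 ± 0.26 did not pass (adjusted p = 0.439). Its receptors Tnfrsf1a and Tnfrsf1b, which carry the death and survival signals of TNF, had means of 0.18 ± 0.10 and -0.18 and did not pass. Tnfrsf1a ranged from -0.06 to 0.42, with its highest value on the plain 24-week array too.

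A ligand and its receptor moved in opposite directions. Tnfrsf12a, the receptor Fn14, which is induced on injured and regenerating cells, had 0.81 and 0.76 with the plain diet and 0.78 and 0.84 with high fat, the narrowest range among the 9 members that rose. It rose by 0.80 ± 0.08, or 1.74-fold (adjusted p = 0.00342). Tnfsf12, its ligand TWEAK, had -0.74 and -0.97 with the plain diet and -0.55 and -0.43 with high fat, and fell by 0.67 ± 0.11 in log2 units, 1.59-fold (adjusted p = 0.0159). The receptor exceeded the ligand on all 4 arrays, by 1.47 ± 0.21 (SD over arrays, n = 4). Both genes have 1 probe each, and the call of Tnfsf12 ended without the plain 24-week array (-0.57, adjusted p = 0.0724).

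Tnfsf13, or APRIL, a survival factor for antibody-producing cells, had 1.15 and 0.84 with the plain diet and 0.44 and 0.19 with high fat. All 4 arrays were above chow and the mean rose by 0.66 ± 0.16, close to the threshold (adjusted p = 0.0485; 0.0509 with robust empirical Bayes). Its call ended without the plain 6-week (0.0918), the high-fat 6-week (0.0802) or the plain 24-week array (0.188). Its receptors did not pass: Tnfrsf13b had a mean of -0.02, and Tnfrsf17, which marks plasma cells, lay below chow on every array at -0.66 to -0.13 (-0.36 ± 0.12, adjusted p = 0.0947). Tnfrsf19, a receptor best known from epithelial and neural development, had the largest fall, -0.96 ± 0.08 (adjusted p = 0.00220). That value came from 1 of its 4 probes, with a mean of -3.70, while the others had means of -0.21, -0.15 and 0.23. With the median of the probes the gene stood at -0.18 and did not pass (adjusted p = 0.183). The remaining TNF superfamily members did not pass; among them the death ligand Tnfsf10 (TRAIL) had a mean of 0 and ran from -0.30 to 0.34, and the secreted decoy Tnfrsf11b (osteoprotegerin) was below chow on every array, at -0.40 to -0.05.

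Among the other interleukin receptors, Il13ra1, a chain shared by interleukin-4 and interleukin-13, had ratios between 0.33 and 0.45 and rose by 0.38 ± 0.08 (adjusted p = 0.0299). Its 2 probes differed, with means of 0.01 and 0.74. Il9r, the receptor of the mast cell and lymphocyte cytokine interleukin-9, had ratios between 0.32 and 0.42 and rose by 0.35 ± 0.08 (adjusted p = 0.0346). Both calls ended without any one of the 4 arrays, with adjusted p from 0.0508 to 0.121 for Il13ra1 and from 0.0595 to 0.137 for Il9r. Their ligands did not pass: Il4, Il13 and Il9 had means of -0.28, 0.17 and 0.09. The common interleukin-4 receptor chain Il4ra had a mean of -0.11.

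Il17a, a cytokine of T cells that recruits neutrophils, was below chow on every array, at -0.15 and -0.36 with the plain diet and -0.65 and -0.55 with high fat. It fell by 0.43 ± 0.11 (adjusted p = 0.0484). This call ended under 3 other settings (adjusted p from 0.0507 to 0.0526) and without the high-fat 6-week (0.149), the plain 24-week (0.146) or the high-fat 24-week array (0.145). Its receptor chains Il17ra and Il17rc had means of 0 and -0.03. Il4i1 had 0.76 and 0.62 with the plain diet and 0.30 and 0.32 with high fat, a rise of 0.50 ± 0.11 (adjusted p = 0.0339). A second probe of Il4i1, without a value on the plain 24-week array, read -0.47, 0.19 and 0.20 on the others, and with it the mean was 0.32 and did not pass (adjusted p = 0.0966). Leaving out any one array also ended this call, with adjusted p from 0.0597 to 0.141.

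The cytokines that drive the acute phase response did not pass. Il6 was above chow on every array, with 0.53 on the plain 6-week array and 0.11 to 0.17 on the others (0.24 ± 0.10, adjusted p = 0.168). Its receptor Il6ra, the mean of 3 probes, was below chow on every array (-0.21 ± 0.09, adjusted p = 0.195). Those probes differed, with means of -0.36, 0.06 and -0.32. The shared signalling chain Il6st stood at -0.04. Il34, a ligand of the macrophage growth factor receptor, was above chow on every array at 0.07 to 0.69 and did not pass (0.35 ± 0.12, adjusted p = 0.112). Of the 4 members of the interleukin-12 group and the 6 of the interleukin-10 group none passed, with means from -0.31 to 0.05 and from -0.25 to 0.15.

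Ligands and receptors were then compared on each array. The median ratio of the 40 ligands was 0.06 and 0.04 with the plain diet at 6 and 24 weeks, against 0 and -0.04 with high fat. The median of the 49 receptors and decoys was 0.01 and 0 with the plain diet, against 0.03 and 0 with high fat. Ligand minus receptor medians were 0.05, -0.03, 0.04 and -0.05 in the order plain 6 weeks, high-fat 6 weeks, plain 24 weeks and high-fat 24 weeks, with an SD over arrays of 0.05 (n = 4). The sign followed the diet, and for the means over the 4 arrays the difference was -0.01, less than that SD. Medians of all genes lay between -0.01 and 0.05 on the arrays. The 3 inhibitors had medians of 0.86 and 0.56 with the plain diet, against 0.51 and 0.30 with high fat, with Il1f5 the low one of the 3. At least 1.5-fold higher than chow were 4 ligands and 3 receptors on the plain 6-week array (12.9% of all genes), 5 and 4 on the plain 24-week array (9.06%), 1 and 2 on the high-fat 6-week array (2.96%) and 0 and 2 on the high-fat 24-week array (3.60%). At least 1.5-fold lower were 3 and 2 (7.03%), 2 and 1 (4.94%), 1 and 1 (4.01%) and 0 and 1 (4.36%) in the same order. Of 56 measured ligand and receptor or inhibitor pairs, 34 had means of the same sign. Several pairs share a gene, and means near 0 were counted by their sign. No like count was made for other pairs of genes, so this number has no reference. Both partners passed in 2 pairs, Il1rn with Il1r1 and Tnfsf12 with Tnfrsf12a, the former in 1 direction and the latter in opposite directions.

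**Figure D3:**
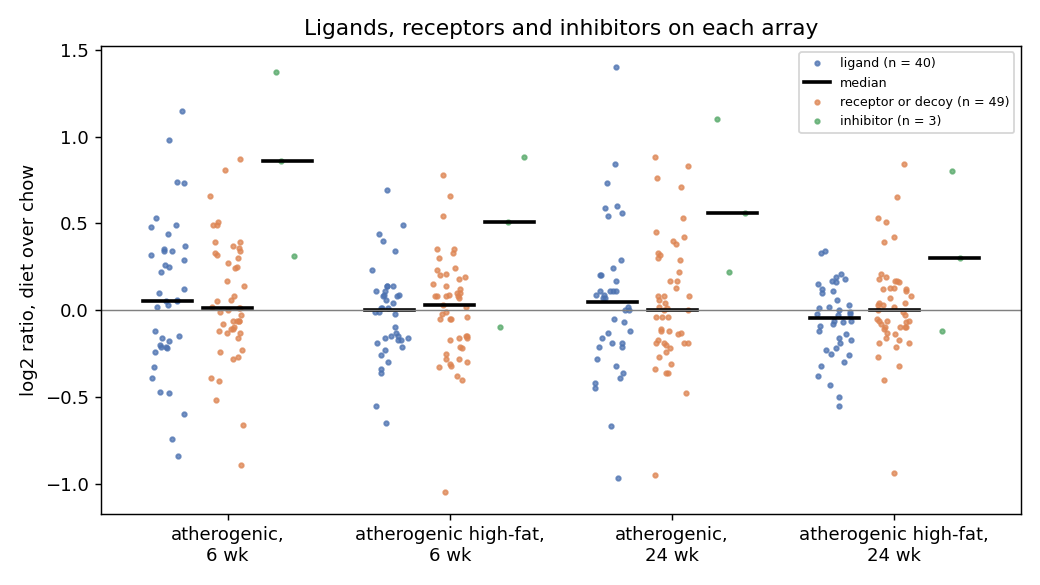
Log2 ratio of diet over chow (y axis) of each ligand, receptor or decoy, and inhibitor on the 4 arrays (x axis), with the median of each role as a black bar. Ligand and receptor medians lie between -0.04 and 0.06 on every array. The spread of all members is wider on the plain arrays (SD 0.42 and 0.40) than on the high-fat arrays (0.30 and 0.27). So is that of all genes measured (0.52 and 0.45 against 0.35 and 0.37).

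The second comparison set the diet with high fat against the plain diet. Differences are high fat minus plain, averaged over both durations, in a limma model with diet and duration terms and 1 residual degree of freedom. Of the 93 members 7 passed, 1 higher and 6 lower, where 11.2% of all genes passed, 3.99% higher and 7.25% lower. Of the 7, 6 were ligands. At an unadjusted p under 0.05 stood 24 members (32.7% of all genes). Both high-fat values lay below both plain values for 33 members (36.2% of all genes) and above for 22 (25.3%), so the members did not exceed the share of all genes. Il1f8, an interleukin-36 cytokine, had -0.84 and -0.67 with the plain diet and 0.09 and 0.21 with high fat, a difference of 0.90 ± 0.14 (adjusted p = 0.0192). It was thus below chow on both plain arrays and near chow or slightly above it on the high-fat arrays. The 6 others were lower with high fat. Il7, which sustains lymphocytes, had 0.73 and 0.56 with the plain diet and -0.21 and 0.06 with high fat (-0.72 ± 0.16, adjusted p = 0.0354). Tnfsf13 differed by -0.69 ± 0.14 (adjusted p = 0.0300) and Il18 by -0.61 ± 0.14 (adjusted p = 0.0371), with the values given above. Those of both genes stayed above chow on every array and were closer to it with high fat.

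Il21, a product of helper T cells, had 0.35 and 0.54 with the plain diet and -0.26 and -0.06 with high fat (-0.61 ± 0.14, adjusted p = 0.0374). Il17b, a relative of Il17a, had 0.34 and 0.60 against -0.15 and -0.03 (-0.56 ± 0.14, adjusted p = 0.0466). The receptor among the 7, Il3ra, which binds the mast cell and basophil growth factor interleukin-3, had 0.87 and 0.71 against 0.30 and 0.12 (-0.58 ± 0.14, adjusted p = 0.0419). Their measured partners did not pass, with differences of -0.19 for Il21r, -0.12 for Il7r, -0.20 for Il17rb, 0.32 for Il3 and -0.13 for Il1rl2. The receptors of Il18 had 0.47 (Il18r1, adjusted p = 0.0792) and -0.10 (Il18rap), and those of Tnfsf13 had 0.43 (Tnfrsf17, adjusted p = 0.0855) and 0.10 (Tnfrsf13b). All 3 inhibitors were lower with high fat without passing, Il1rn by -0.40 ± 0.14 (adjusted p = 0.105) and Il18bp by -0.30. Scaling the arrays to a common spread, which the wider plain arrays make relevant, ended the calls of Il18 (-0.39, adjusted p = 0.0816), Tnfsf13 (-0.42, 0.0731) and Il3ra (-0.38, 0.0918), and centring those of Il3ra (0.0520) and Il17b (0.0572). Without the duration term none of the 7 passed (adjusted p from 0.0745 to 0.103), when 8 genes of all did.

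**Figure D4:**
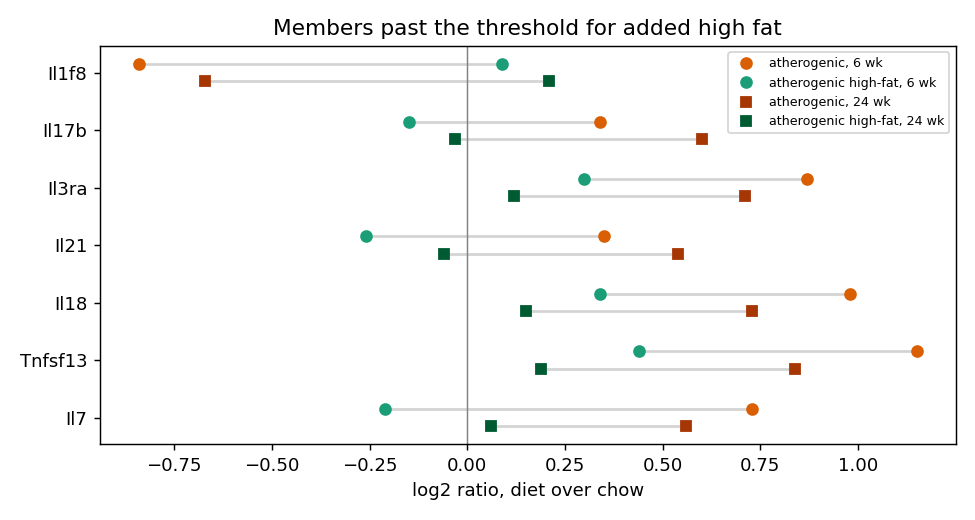
Log2 ratio of diet over chow (x axis) of the 7 members past the threshold for added high fat, with a grey line from the plain to the high-fat array of the same duration (circles 6 weeks, squares 24 weeks). In 6 members both high-fat values lie below both plain values, and in Il1f8 both lie above.

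The third comparison set 24 against 6 weeks over both diets in the same model. No member and no gene passed in limma (0.00% of all genes), with 8 of 93 members and 9.87% of all genes at an unadjusted p under 0.05. The largest difference among members was that of Il1b, -0.98 ± 0.15 (adjusted p = 0.164, also the smallest among members), at -1.16 with the plain diet and -0.79 with high fat. Il34 was lower at 24 weeks within both diets (-0.42 and -0.53), as was Il10, a cytokine that restrains macrophages (-0.48 and -0.31), while Il1r2 was higher within both (0.40 and 0.47). These 3 had adjusted p of 0.373, 0.438 and 0.397. Tnf differed by 1.73 with the plain diet and by 0 with high fat. Every 24-week value lay below every 6-week value for 11 members (10.5% of all genes), and above for 13 (13.9%).

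The signalling steps around these cytokines were counted from lists of known genes in the diet over chow comparison. There 6.25% of all genes rose and 5.72% fell, and with high fat 3.99% of all genes were higher and 7.25% lower. Of 16 measured adaptors next to the receptors, 1 fell, Traf5 (-0.85 ± 0.09), an adaptor of TNF receptors, and the median was 0.03. Of 12 NF-kB genes, the subunit Rel fell (-0.61 ± 0.09) and the inhibitor Nfkbie rose (0.60 ± 0.10), with a median of 0.03. Of the 12, 1 was higher with high fat, the subunit Relb (0.92 ± 0.16, adjusted p = 0.023). It had -1.37 and -0.70 with the plain diet and -0.22 and -0.01 with high fat. Of 14 JAK-STAT genes, Stat2 fell (-0.36 ± 0.09), and the feedback inhibitor Socs3 stood at 0 with 4 values between -0.01 and 0.02. Of the 14, 1 was lower with high fat, Stat4 (-1.42 ± 0.14, adjusted p = 0.00911). It had 1.06 and 1.29 with the plain diet and -0.26 and -0.24 with high fat. Among 8 genes of cytokine processing and release the median was 0.35 and 2 rose, the inflammasome adaptor Pycard (1.14 ± 0.19) and the inflammatory protease Casp4 (0.77 ± 0.10). Casp1, which cleaves the precursors of interleukin-1 beta and interleukin-18, had 1.31 and 0.71 with the plain diet and 0.33 and 0.21 with high fat. Its mean did not pass (0.64 ± 0.18, adjusted p = 0.0701), while its difference by high fat did (-0.74 ± 0.16, adjusted p = 0.0359), as did that of Pycard (-0.71 ± 0.16, adjusted p = 0.0367). Of the 8 genes 3 were lower with high fat, the other being the shedding protease Adam10 (-0.66 ± 0.14, adjusted p = 0.0317), and 1 was higher, the proprotein convertase Furin (0.72 ± 0.14, adjusted p = 0.0278). Of 16 genes known to be induced by TNF or interleukin-1, 7 rose and none fell, with a median of 0.28. Largest were Lcn2, which captures bacterial iron carriers (2.22 ± 0.14), the serum amyloids Saa3 (1.66 ± 0.23) and Saa2 (1.53 ± 0.15), and the adhesion molecule Vcam1 (1.25 ± 0.22). Saa1, a near-identical copy of Saa2, had values between -0.27 and 0.10 and did not pass (-0.09 ± 0.10, adjusted p = 0.575), so the value of Saa2 is uncertain. The feedback inhibitor Tnfaip3 rose by 0.44 ± 0.09. For diet over chow the median of all genes was 0. Of the 16 induced genes 6 were lower with high fat and none was higher. The 6 were Vcam1 (-0.95), Tnfaip8 (-0.92), Saa3 (-0.89), Nos2 (-0.72), Tnfaip6 (-0.59) and Tnfaip2 (-0.56).

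Markers of other cells moved in the same comparison of diet over chow, in which 6.25% of all genes rose and 5.72% fell. Of 11 macrophage markers 4 rose and 1 fell, with list medians of 0.84 and 0.69 for the plain diet and 0.37 and 0.17 for high fat. The complement genes C1qa, C1qb and C1qc and the lysosomal Cd68 rose, while Vsig4, a receptor of resident Kupffer cells, fell. With high fat (6, then 24 weeks) Cd68 had 1.01 and 0.73, C1qa 0.76 and 1.19, C1qb 1.14 and 1.74 and C1qc 0.59 and 1.09. The macrophage list medians with high fat thus do not describe these 4 genes, whose difference by high fat did not pass. That of Vsig4 did (-1.18 ± 0.19, adjusted p = 0.0194). Of 8 neutrophil markers 2 rose and 1 fell, with medians of 0.63 and 0.85 for the plain diet and 0.07 and 0.09 for high fat. S100a8 (2.34 ± 0.25) and S100a9 (2.7 ± 0.29) rose, while Elane fell (-0.64 ± 0.08). S100a8 and S100a9 stood well above chow on every array. With high fat they were lower at 6 weeks than at 24 weeks (2.64 and 2.98 at 24 weeks). The high-fat medians of the list thus do not describe these genes. T cell and B cell lists had medians of -0.01 and -0.14, with none of 14 measured genes higher and 1 lower, Thy1. Of 7 natural killer cell markers 2 rose, of 6 stellate cell markers 2 rose and 1 fell, and none of 6 endothelial or 4 bile duct markers passed. Of 8 hepatocyte markers none passed for diet over chow, but 4 were lower with high fat, as were 7.25% of all genes. So were 3 of the 11 macrophage, 2 of the 8 neutrophil, 1 of the 7 natural killer cell and 1 of the 4 bile duct markers. In the T cell, B cell, endothelial and stellate lists none was lower, and no marker of any of these lists was higher. The medians of the hepatocyte list were 0.01 and 0.17 for the plain diet and -0.51 and -0.64 for high fat. In whole liver more cells of a type and more RNA per cell cannot be told apart, and the part of these markers in the members' values was not tested.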

How the data were processed

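Ratios were deposited by the authors as signed logarithms, treated here as log10 of Cy5 (diet) over Cy3 (chow). Per the series' design text, slides were read with GenePix Pro 4.1 and LOWESS-normalized in GeneSpring 7.2. How background was corrected and spots were filtered is unknown here, as are the log base, any further centring and the direction. The base was inferred from the spread (the interquartile range on the plain 6-week array would be a 13.5% difference in base 2 and 52.4% in base 10), and the direction from the dyes. Median deposited values were -0.019, 0.006, -0.005 and 0.006 on the plain 6-week, high-fat 6-week, plain 24-week and high-fat 24-week arrays. LOWESS does not remove a dye preference of a single probe.

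Values were converted to log2. Each array gave values for 27951 to 28806 of 28845 probes, and 27870 were complete over the 4 arrays. One symbol was annotated for 17637 probes, several for 64 and none for 11144. Updating symbols through gene identifiers changed no name (252 probes did not match). A gene is the mean of its probes with a value on all arrays. Members had 120 such probes, and 21 members had more than 1. Tests used limma 3.58.1 (lmFit, eBayes, two-sided, Benjamini-Hochberg over 13705 genes) in R 4.3.3, with 3 residual degrees of freedom for diet over chow and 1 for high fat and duration. With 1 array per condition, the p-values rest on how the conditions scatter and hold no spread between animals or between chow samples. The number of arrays limits precision.

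Members and lists were chosen with earlier results of these data known. Named were the series' 5 markers, members called (at most 15 per direction), the 8 ligands and 8 receptors with the largest means, members called for high fat or duration (where fewer than 4, the 4 whose smaller within-diet or within-duration difference of 1 sign was largest), their partners, and up to 4 called genes per pathway list; other members and genes were named after their values were seen. Promoter windows (250 bases before to 50 after a start) are RefSeq's. Alternatives were centring, scaling, probe summaries, limits, missing values, robust eBayes, thresholds, other models and leaving out each array; leaving out probes at shared values was added after seeing the data.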

Additional observations from a re-analysis of the deposited data

Results flagged for a closer look

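In 7 members the response to the atherogenic diet differed between the diets without and with high fat, by the limma test of that difference. These were 7.53% of the members, where 11.2% of all genes passed. The model had 1 residual degree of freedom, and without its duration term none of the 7 passed. Il1f8 was higher with high fat, by 0.90. Lower with high fat were Il7 (-0.72), Tnfsf13 (-0.69), Il18 (-0.61), Il21 (-0.61), Il3ra (-0.58) and Il17b (-0.56). Il1b lay above chow on both 6-week arrays and below it on both 24-week arrays, a difference of -0.98. Il10 did the same with smaller values (0.03 and 0.06, then -0.45 and -0.26), a difference of -0.40. Neither of the last passed the test of duration.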

How the results depend on the processing

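The count of members called for diet over chow was 12. It stayed within 1.5 times of that except in the additive model, where it was 29 (38.1% of all genes passed), and when arrays were left out, where it ran from 3 to 8 while the share of all genes ran from 2.09% to 8.60%. For high fat the 7 (11.2% of all genes) became 4 with scaled arrays (12.9%), 14 with probes as rows (15.8% of all probes), 15 at an adjusted p of 0.10 (23.9%) and 0 with that term alone (0.0584%). For duration it was 0 under each setting run. Leaving out an array leaves no residual degrees of freedom for high fat and duration, so that alternative was not run there. The ligand minus receptor median (-0.01) moved to 0.04 with inhibitors among the ligands and decoys in neither role, and ran from -0.07 to 0.03 when arrays were left out; the cause was not tested. On the plain 24-week array 63 probes held 1 value (0.59 in log2) where neighbouring values held 29; of the members Il31 and 1 of 2 probes of Il17ra lay there, and leaving such probes out kept both counts. No paired analysis was possible because the labels give no replicate numbers to block on; the comparison of high fat does match arrays by duration through its duration term, and the value with that term alone is the fit without this matching.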

Other observations

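The 2 members without a value on all arrays lacked one on the high-fat 6-week array. Tnfsf13b, the B cell survival factor BAFF, read -0.39, -0.55 and 0.21 on the plain 6-week, plain 24-week and high-fat 24-week arrays, and the TRAIL receptor Tnfrsf10b read 0.30, -0.33 and -0.25. Several members had probes of opposite sign: the 2 probes of Il16, a lymphocyte attractant, had means of 0.51 and -0.39, and those of Il1rapl2, a neural relative of the interleukin-1 receptors, -0.09 and 0.50.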
